A study of Mus musculus with 8 samples.

Results

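The cells described here were macrophages that carried UMIs of both Il1b, which encodes the cytokine IL-1β, and Ptgs2, which encodes cyclooxygenase-2. They were chosen on raw counts of unique molecular identifiers (UMIs, 1 for each captured mRNA molecule): at least 5 UMIs of C1qa, C1qb and C1qc together, at least 2 of Il1b and at least 1 of Ptgs2. A further set of limits allowed at most 2 UMIs of Spp1, at most 1 of Cxcl9, at most 1 of Mki67 and Top2a together, 0 of Cd3d, Cd3e and Cd3g, and at most 2 of Mtap and Rhox5 together. This gate held 675 cells, which were 16.0% of the 4220 C1q-positive cells and 6.83% of the 9886 cells within the limits on quality. The other 3545 C1q-positive cells served as the comparison, and 1115 of them lay within every limit of the gate other than those on Il1b and Ptgs2.

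The cells came from 8 tumors of MC38, a mouse colon carcinoma line grown under the skin of C57BL/6 mice, 1 tumor and 1 library per mouse. Tumors were taken 24 h after saline (3 tumors), free R848 (3 tumors) or medium R848-BPD (2 tumors). R848 (resiquimod) is a small-molecule agonist of the Toll-like receptors TLR7 and TLR8, and R848-BPD is a bottlebrush polymer prodrug from which R848 is released, here with the linker of medium release rate. CD45+ and CD45- cells were separated on magnetic columns and loaded at 9 to 1 onto Seq-Well arrays, so shares of cells are shares of this mixture. The gate held 71, 74 and 47 cells in the saline tumors, 89, 136 and 75 in the free R848 tumors and 122 and 61 in the R848-BPD tumors.

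IL-1β is made as an inactive precursor. It is cut by caspase-1, which is activated in inflammasomes, and NLRP3 is the sensor of one of them. Transcription of both Il1b and Ptgs2 is raised by NF-κB after Toll-like receptor or IL-1 receptor signaling, and Ptgs2 makes the precursor from which prostaglandin E2 and other prostanoids are formed. Macrophages in tumors include cells freshly derived from blood monocytes and cells with tissue-resident features, and Il1b is a known product of the former in many settings.

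Promoter sequence is shown for Il1b and Ptgs2, the genes that define the gate, and for Cxcl2, a neutrophil-attracting chemokine and known NF-κB target that was higher in the gated cells. Each line gives the 250 bases before the RefSeq transcript start on the gene's own strand (mouse build GRCm38.p6), and capitals mark matches to a κB-type motif, GGG and CC with any 5 bases between them, searched on both strands. Il1b lies on the minus strand (chr2:129371140-129371389), Ptgs2 on the plus strand (chr1:150099781-150100030) and Cxcl2 on the plus strand (chr5:90903649-90903898).
Il1b: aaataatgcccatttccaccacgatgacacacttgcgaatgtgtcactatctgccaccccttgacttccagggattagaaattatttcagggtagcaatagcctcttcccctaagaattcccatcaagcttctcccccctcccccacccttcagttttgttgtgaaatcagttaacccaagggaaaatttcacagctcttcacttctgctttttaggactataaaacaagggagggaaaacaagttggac
Ptgs2: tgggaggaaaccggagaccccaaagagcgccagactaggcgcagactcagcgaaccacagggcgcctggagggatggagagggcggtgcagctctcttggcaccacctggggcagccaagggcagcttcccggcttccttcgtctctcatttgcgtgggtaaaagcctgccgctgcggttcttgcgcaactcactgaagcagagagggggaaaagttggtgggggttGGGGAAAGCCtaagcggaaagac
Cxcl2: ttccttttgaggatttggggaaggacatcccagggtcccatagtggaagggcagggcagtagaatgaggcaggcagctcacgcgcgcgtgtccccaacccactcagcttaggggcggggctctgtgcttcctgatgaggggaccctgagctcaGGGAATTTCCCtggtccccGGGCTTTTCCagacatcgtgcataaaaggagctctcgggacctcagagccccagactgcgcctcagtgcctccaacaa
The Ptgs2 window held 1 match, the Cxcl2 window 3, of which 2 overlap each other, and the Il1b window 0. The same letters occurred in 45.8% of all 32851 windows of this length, in 62.3% of those of genes tested, and in 63.6% and 63.1% of those of genes called higher and lower in the gated cells. Matches to TTNNGNAA, a C/EBP-type motif, numbered 1 before Il1b, 2 before Ptgs2 (1 of them overlapping the κB match) and 1 before Cxcl2, against 36.8% of all windows with at least 1. The AP-1 letters TGANTCA stood in 6.62% of the windows of genes called higher, 4.46% of those of genes tested and 6.75% of all windows. A match describes the letters in the window and does not show binding.

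Within the gate, Il1b counts had a median of 21 UMIs per cell (quartiles 11 and 37, highest 214), and 17 cells held the minimum of 2. Ptgs2 was sparser, with a median of 3 UMIs (quartiles 2 and 7, highest 46) and 145 cells at the minimum of 1. The gate used both genes, so these values describe the choice. Among the 7 cells just inside the limits (Il1b at 2 or 3 UMIs and Ptgs2 at 1), Il1b stood at 4.40 and Ptgs2 at 1.81 UMIs per 10000, and among the 49 cells just outside (Il1b at 1 and Ptgs2 at 1 or more) they stood at 1.60 and 5.10.

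Nlrp3 and Olr1, which were listed with Il1b and Ptgs2 as marking these cells, were not used by the gate. Nlrp3, the inflammasome sensor, had a UMI in 474 gated cells (70.2%), with a median of 1 per cell. Its level was 231 to 624 CPM (median 386) in gated cells and 101 to 371 CPM (median 164) in the others, and it was higher in 8 of 8 tumors (log2 difference 1.05, given as a description because the gene was listed for this pattern). Olr1, a scavenger receptor for oxidized LDL, had a UMI in only 56 gated cells (8.30%), 45 of them with 1 UMI. It ranged from 5.59 to 59.4 CPM in gated cells and from 1.77 to 37.5 CPM in the others and was higher in 7 of 8 tumors (log2 difference 1.21). Nlrp3 therefore marked most of the cells, and Olr1 was near its detection limit. With each cell thinned by random draw to 2000 UMIs, Nlrp3 was found in 34.4% to 61.4% of gated cells per tumor and in 17.3% to 45.7% of the others, higher in 8 of 8 tumors, and Olr1 in 0% to 11.4% and 0.617% to 8.02%. The cells also carried general macrophage genes: 91.6% had a UMI of Csf1r, the receptor for macrophage colony-stimulating factor, 76.6% of Emr1 (F4/80) and 93.9% of Apoe.

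Levels of several inflammatory genes were ordered with those of Il1b and Ptgs2 among C1q-positive cells within the other limits. In UMIs per 10000 over the pooled cells, Nlrp3 stood at 0.816 in the 373 cells with no UMI of Il1b or Ptgs2, at 2.52 in the 450 cells with Il1b at 2 or more and no Ptgs2, and at 3.60 in the gate. Il1rn, which encodes the IL-1 receptor antagonist, stood at 5.30, 7.22 and 12.1 in these cells, and Cxcl2 at 4.67, 8.02 and 12.5. Thbs1, the matrix protein thrombospondin-1, stood at 8.13, 15.4 and 27.0 UMIs per 10000, and Vegfa, the vascular growth factor, at 1.24, 2.84 and 5.29. For each of these genes the cells with Il1b alone lay between the others in the pooled cells, and within single tumors this order held in 8 of 8 for Nlrp3, Il1rn and Thbs1, 7 for Vegfa and 6 for Cxcl2. The step from Il1b alone to the gate was small or absent for other genes. Tnf, the cytokine TNF, was at 1.40, 1.92 and 1.98, Csf1r at 6.93, 9.00 and 8.62, and H2-Ab1, an MHC class II chain, at 10.3, 30.9 and 31.8, and their gated cells lay above those with Il1b alone in 4, 3 and 3 of 8 tumors. For H2-Ab1 the cells with Il1b alone lay above those with neither in 8 of 8 tumors. The pooled levels mix treatments in unequal shares. Median UMIs per cell were 5087, 4577 and 4966 in these cells. These pooled levels carry no test.

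**Figure D1:**
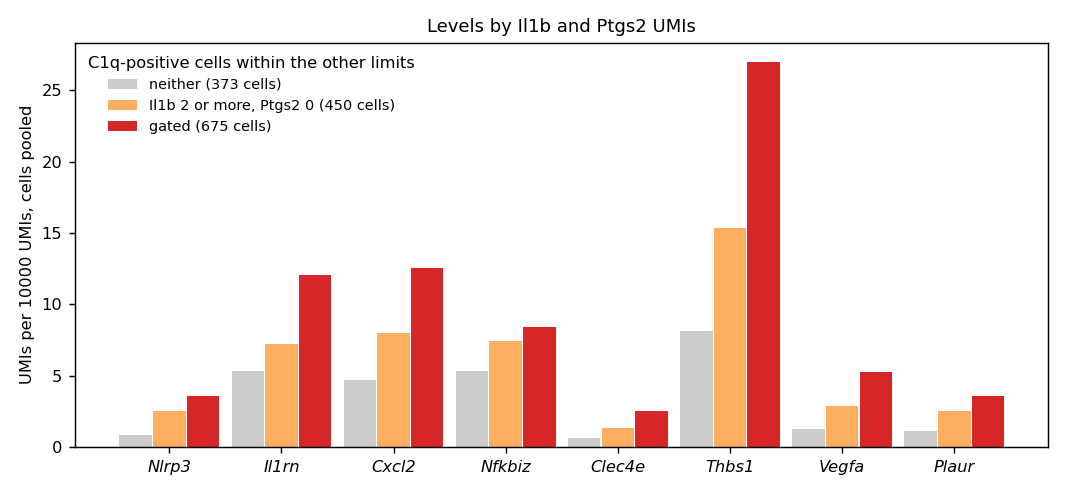
Bars give UMIs per 10000 UMIs (vertical axis, starting at 0) for named genes in C1q-positive cells within the other limits of the gate, split by Il1b and Ptgs2 UMIs: 373 cells with neither, 450 with Il1b only and the 675 gated cells, pooled over 8 tumors and without error bars. Thbs1 stands at 8.13, 15.4 and 27.0 across these cells.

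The 8 libraries held 5867590 to 12422614 UMIs in all. Gated cells had a median of 4966 UMIs and the other C1q-positive cells 5929. The sums of UMIs over gated cells, on which the tests rest, ran from 160142 to 862918 per tumor. Of the barcodes, 11 occurred in more than 1 library, and these marked 2 gated cells, both in R848-BPD tumor 1. Scrublet, a doublet caller, marked 67 of all cells (0.678%), 2 of them gated. At least 2 UMIs of the neutrophil markers Csf3r, Cxcr2 and Retnlg together were found in 34 gated cells and 111 others. S100a8 and S100a9 were not part of this count.

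The share of gated cells among C1q-positive cells was highest after free R848. It was 15.5%, 7.56% and 11.8% in the saline tumors, 21.2%, 21.4% and 22.5% in the free R848 tumors, and 21.3% and 14.4% in the R848-BPD tumors. The free R848 tumors all lay above the saline tumors, R848-BPD tumor 1 lay among the free R848 tumors, and R848-BPD tumor 2 among the saline tumors. Saline tumor 2 stood apart in that 67.8% of its cells were C1q-positive, against 31.4% to 48.4% in the other tumors. As a share of all cells, gated cells were 5.17%, 5.13% and 3.72% after saline, 8.73%, 10.4% and 8.41% after free R848, and 8.96% and 4.99% after R848-BPD. Of C1q-positive cells, means were 11.6% ± 3.96 (SD, n = 3) after saline, 21.7% ± 0.674 (n = 3) after free R848 and 17.9% ± 4.86 (n = 2) after R848-BPD. The difference between free R848 and saline was 10.1 percentage points (two-sided exact permutation p = 0.1, the smallest that 3 against 3 tumors allow, adjusted over 3 comparisons 0.3). R848-BPD lay 6.23 points above saline (exact permutation p = 0.4, adjusted 0.4) and differed from free R848 by -3.83 points (exact permutation p = 0.4, adjusted 0.4), where the smallest p for 2 against 3 tumors is 0.2. Without R848-BPD tumor 1 these differences were 2.80 and -7.27 points, and without R848-BPD tumor 2 they were 9.67 and -0.396 points. No comparison passed.

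These differences depended on the depth of the cells and on the cells counted as the whole. With each C1q-positive cell thinned to 2000 UMIs, which left out 34, 28 and 3 cells of the saline, free R848 and R848-BPD tumors, the shares were 19.2%, 8.33% and 14.8%, 18.2%, 21.4% and 23.1%, and 15.1% and 10.5% in the same order. R848-BPD then lay 1.34 points below saline. Among C1q-positive cells within the other limits, gated cells made up 51.1%, 32.7% and 48.5% after saline, 50.0%, 40.6% and 40.8% after free R848, and 36.1% and 20.8% after R848-BPD. On this count free R848 and saline differed by -0.306 points (exact permutation p = 1) and R848-BPD lay 15.6 points below saline (exact permutation p = 0.4). Over all C1q-positive cells, 1606 held both genes and 931 of these lay past another limit, 550 past that on Spp1 and 394 past that on Mki67 and Top2a.

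Cells of other types served as a background for such shares. Among 530 T cells (median 4877 UMIs), which are not known to make much of either transcript, a mean of 6.36% per tumor held both genes at the same cutoffs after saline (4.55% to 7.50%) and 5.23% after free R848 (2.63% to 9.84%). After R848-BPD it was 1.68% (2 of 119 cells) in tumor 1 and 22.9% (8 of 35) in tumor 2, where the gated share of C1q-positive cells was 14.4%. In 1268 MC38 cells, with a median of 11912 UMIs, these shares were 5.36%, 1.39% and 2.48%. Of all C1q-positive cells, 1606 of 4220 (38.1%) held both. At 2000 UMIs per cell the T cell shares were 4.18% after saline, 4.30% after free R848, and 1.71% and 14.3% in the R848-BPD tumors.

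**Figure D2:**
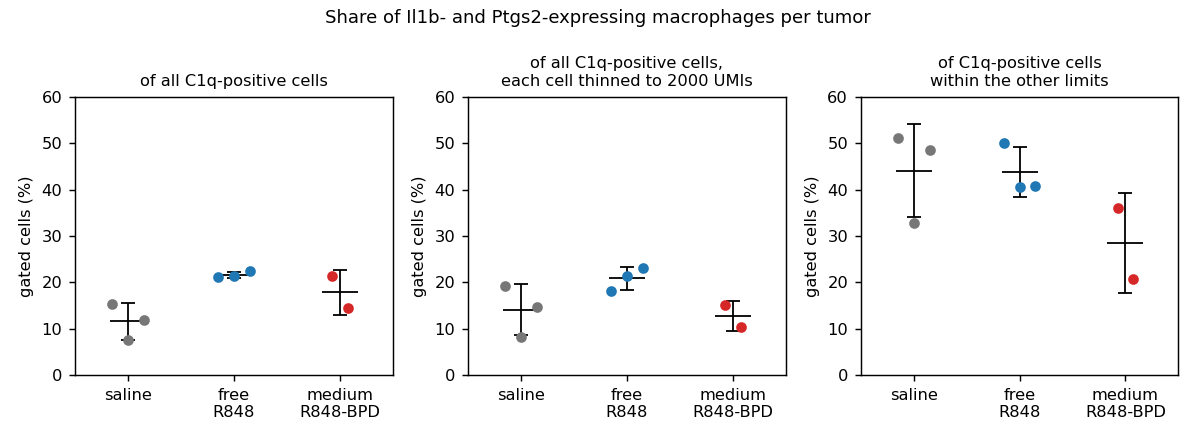
Points give, for each tumor, gated cells as a percentage (vertical axis) of C1q-positive cells, of these after thinning to 2000 UMIs, and of C1q-positive cells within the other limits, with the mean and SD of each treatment (n = 3, 3 and 2). Free R848 tumors sit at 21.2% to 22.5% and saline tumors at 7.56% to 15.5% in the first panel, and the groups overlap in the last.

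Against the other C1q-positive cells of the same tumor, gated cells had higher levels of the IL-1 decoy receptor, of NF-κB feedback and immediate-early genes, of the chemokines Cxcl1 and Cxcl2 and of MHC class II genes. They had lower levels of cell-cycle genes and of the chemokine Ccl8, and tissue-macrophage genes were divided. Counts were summed over the cells of each kind in each tumor and compared with edgeR's quasi-likelihood test with tumor as a term, and 1916 of 8471 genes tested (22.6%) had a Benjamini-Hochberg adjusted p under 0.05, 1066 higher (12.6%) and 850 lower (10%). CPM values here are counts per 1000000 UMIs of the summed cells, scaled by trimmed mean of M-values (TMM). Against the 1115 other cells within the same limits, 530 of 6398 genes (8.28%) passed, 366 higher (5.72%) and 164 lower (2.56%), and 450 genes passed in both with the same direction, 23.5% of the first list and 84.9% of the second. Choosing cells by Il1b and Ptgs2 also chooses genes that vary with them from cell to cell, so these calls describe the chosen cells and are no independent evidence. Values against cells within the same limits, where the limits on Spp1, Cxcl9, Mki67, Top2a and the others apply to both sides, are therefore given beside those against all other cells.

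Il1r2, which encodes a decoy receptor that binds IL-1 without signaling, had the largest increase among the 15 genes named by size of rise. Its level was 83.3 to 495 CPM (median 166) in gated cells and 20.3 to 142 CPM (median 52.5) in the others, and in each of the 8 tumors the gated cells lay above the others, which held for 7.31% of all genes (7.01% lay lower in all 8). The log2 difference was 1.76 ± 0.12 (SE), adjusted p 3.67e-10, and 1.73 within the same limits, adjusted p 1.8e-07. Among the other IL-1 genes, Il1rn was at 771 to 2411 CPM (median 1412) in gated cells and 347 to 1500.3 CPM (median 929) in the others (log2 difference 0.72 ± 0.09 (SE), adjusted p 2.81e-06, and 1.00 within the same limits, adjusted p 3.6e-09). Il1a, which encodes the second IL-1 agonist, followed with a log2 difference of 0.93 (2.03 within the same limits). Of 15 measured genes of the IL-1 and inflammasome list that could be tested, 6 were higher and 0 lower, beside 12.6% and 10% of all genes. The median log2 difference was 0.36 against -0.00 over all genes. Within the same limits 3 of 14 were higher, beside 5.72% of all genes, with a median of 0.01. The 6 were Il1r2, Il1rn, Il1a, P2rx7 (an ATP-gated channel that triggers NLRP3), Txnip and Gsdmd (gasdermin D, the pore protein), and the last 3 were not called within the same limits. Casp1 and Pycard, the inflammasome protease and adaptor, differed by -0.07 and -0.12 on the log2 scale and did not pass.

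Prostaglandin and leukotriene genes other than Ptgs2 were divided, with a median log2 difference of -0.09. Of 12 tested, 3 were higher beside 12.6% of all genes, namely Alox5ap, which serves leukotriene synthesis, Pla2g7, which breaks down platelet-activating factor (log2 difference 0.63, 0.28 within the same limits), and Ptger4, a receptor for prostaglandin E2 (0.65, 0.38 within the same limits, adjusted p 0.18 there). Hpgds, which makes prostaglandin D2, was lower (-0.45, -0.86 within the same limits), a call lost without free R848 tumor 2, R848-BPD tumor 1, R848-BPD tumor 2 or saline tumor 3 (adjusted p 0.0527 to 0.116). The list had 1 gene higher and 1 lower of 10 within the same limits, beside 5.72% and 2.56% of all genes. Against all other cells 10% of all genes were lower, so the 1 of 12 lower stood near the background.

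NF-κB factors and their feedback genes were mostly higher: 22 of 27 rose and 0 lower (median log2 difference 0.56), against 12.6% of all genes higher, and 19 of 27 were higher within the same limits (median 0.51), against 5.72%. Nfkbie, an inhibitor of NF-κB, stood at 224 to 435 CPM (median 333) in gated cells and 106 to 214 CPM (median 172) in the others (log2 difference 1.04 ± 0.09 (SE), adjusted p 4.22e-09, and 1.00 within the same limits, adjusted p 3.11e-07). Nfkbia, the main inhibitor and itself an NF-κB target, was the most abundant of those named, at 909.8 to 1654 CPM (median 1323) in gated cells and 623 to 1103 CPM (median 883) in the others, higher in 8 of 8 tumors (log2 difference 0.60, 0.61 within the same limits). Tnfaip3, which encodes the deubiquitinase A20, differed by 0.91 (0.96 within the same limits), the paracaspase gene Malt1 by 0.97 (1.32 within the same limits) and the NF-κB subunit Rel by 0.97 (0.97 within the same limits). The subunit Nfkb1 had a smaller difference of 0.31.

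Immediate-early genes, which are transcribed within minutes of a stimulus, were mostly higher as well. Of 24 tested, 19 were higher and 1 lower (median 0.55), beside 12.6% and 10% of all genes, and within the same limits 14 of 22 were higher and 0 lower (median 0.46), beside 5.72% and 2.56%. The orphan nuclear receptor Nr4a3 was at 121 to 325 CPM (median 274) in gated cells and 56.9 to 197 CPM (median 95.6) in the others (log2 difference 1.32 ± 0.12 (SE), adjusted p 1.09e-08, and 1.54 within the same limits, adjusted p 1e-08), and its relatives Nr4a1 and Nr4a2 differed by 1.03 and 1.07. Dusp5, a phosphatase for ERK, differed by 1.05 (1.17 within the same limits). Fos, a subunit of AP-1, differed by 0.47 ± 0.07 (SE) but only by 0.18 within the same limits (adjusted p 0.159), and Jun by -0.16, which did not pass. The member that fell was Fosl1 (-1.06, adjusted p 0.0136), a call lost without free R848 tumor 1 (adjusted p 0.0645).

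**Figure D3:**
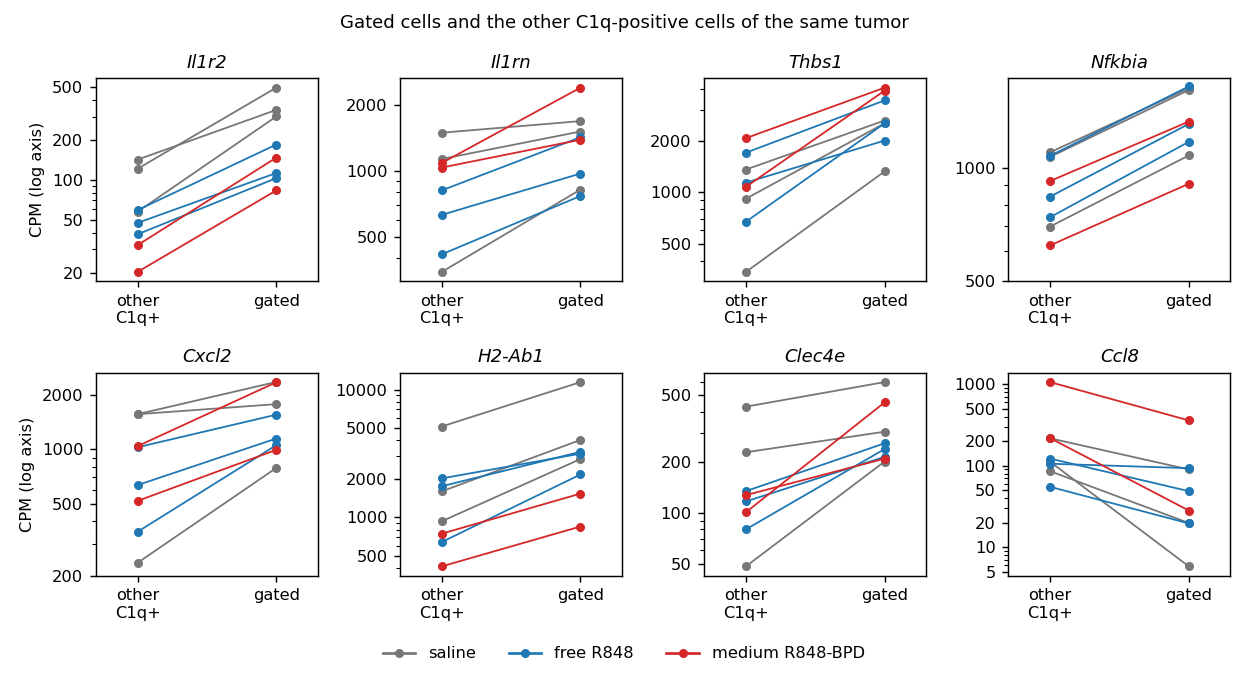
Each line joins the level in the other C1q-positive cells (left) and the gated cells (right) of 1 tumor, in CPM on a log axis, colored by treatment, for Il1r2, Il1rn, Thbs1, Nfkbia, Cxcl2, H2-Ab1, Clec4e and Ccl8. Il1r2 lines climb in 8 of 8 tumors, and Ccl8 lines fall in 8 of 8.

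Chemokines and receptors of recruited myeloid cells divided. Cxcl2, a ligand of the neutrophil receptor CXCR2, was at 790.0 to 2368 CPM (median 1355) in gated cells and 235 to 1569 CPM (median 832) in the others (log2 difference 0.96 ± 0.12 (SE), adjusted p 1.22e-06, and 1.04 within the same limits, adjusted p 6.51e-09), and Cxcl1, a second such ligand, differed by 0.67 (0.97 within the same limits). Ccl5, which draws T cells, was higher as well (0.99, 0.58 within the same limits). In the other direction, Ccl8, a monocyte chemokine, was at 5.80 to 360.4 CPM (median 38.4) in gated cells and 55.1 to 1065 CPM (median 117) in the others (log2 difference -1.54 ± 0.20 (SE), adjusted p 2.99e-06, and -1.97 within the same limits, adjusted p 1.71e-06), and Ccl2 was slightly lower (-0.24, -0.34 within the same limits), a call lost without free R848 tumor 3, R848-BPD tumor 1, R848-BPD tumor 2 or saline tumor 3 (adjusted p 0.053 to 0.13). Over the list, 7 of 15 chemokines were higher and 2 lower, beside 12.6% and 10% of all genes, and within the same limits 4 of 13 were higher and 5 lower, beside 5.72% and 2.56%. Among cytokines Osm (oncostatin M) was higher (0.97, 0.92 within the same limits), Tnf did not pass (0.30, adjusted p 0.0537), and Csf1 was lower (-0.78, adjusted p 0.004).

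Several innate receptors were higher in the gated cells. Clec4e, the receptor Mincle for microbial and damage-derived glycolipids, was at 203 to 600.3 CPM (median 250.1) in gated cells and 48.2 to 429 CPM (median 123) in the others (log2 difference 1.13 ± 0.15 (SE), adjusted p 3.77e-06, and 1.59 within the same limits, adjusted p 2.06e-07). Cd14, the co-receptor for lipopolysaccharide, was at 1206 to 2269 CPM (median 1672) in gated cells and 509 to 1409 CPM (median 863) in the others, higher in 8 of 8 tumors (1.05, 1.06 within the same limits). Trem1, an amplifier of myeloid inflammation, differed by 0.99 (1.05 within the same limits) and Tlr2 by 0.68. Cd36, a scavenger receptor for oxidized lipids, was lower (-0.40, -0.61 within the same limits), a call lost without free R848 tumor 2, R848-BPD tumor 2 or saline tumor 1 (adjusted p 0.0525 to 0.0737). Of 15 scavenger and lectin receptors, 5 were higher and 1 lower, beside 12.6% and 10% of all genes, and within the same limits 6 of 13 were higher and 3 lower, beside 5.72% and 2.56%.

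Genes of matrix, coagulation and oxygen response rose in part. Thbs1 was at 1323 to 4062 CPM (median 2568) in gated cells and 344 to 2065 CPM (median 1106) in the others (log2 difference 1.36 ± 0.11 (SE), adjusted p 3.12e-09, and 1.24 within the same limits, adjusted p 2.03e-09). F10, which encodes coagulation factor X, differed by 1.22 (0.92 within the same limits) and Plaur, the receptor for urokinase, by 0.87 (0.91 within the same limits). The list of repair and plasminogen genes had 10 of 23 higher and 2 lower (9 and 1 of 19 within the same limits). Hypoxia and glycolysis genes had 8 of 24 higher and 0 lower (8 and 0 of 23), among them Hilpda, a lipid droplet protein induced by hypoxia (0.75, 1.11 within the same limits), and Hif1a (0.61). Slc7a11, the cystine transporter of the antioxidant list, differed by 0.92 (1.35 within the same limits), and that list had 8 of 21 higher and 2 lower (5 and 0 of 20). The shares of all genes were 12.6% higher and 10% lower (5.72% and 2.56% within the same limits), so the lower members of the repair and antioxidant lists stood near the background.

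MHC class II genes, which present antigen to CD4 T cells, were higher in the 7 tested of 9 listed, with a median log2 difference of 1.18, and in 5 of 7 within the same limits with a median of 0.59. Of all genes 12.6% were higher, and 5.72% within the same limits, here and for the other lists of this paragraph. H2-Ab1 was at 849 to 11456 CPM (median 3008) in gated cells and 414 to 5145 CPM (median 1265) in the others (log2 difference 1.18 ± 0.09 (SE), adjusted p 1.88e-09, and 0.69 within the same limits, adjusted p 9.36e-06), and H2-Eb1 and H2-Aa differed by 1.33 (0.88 within the same limits) and by 1.24 (0.78 within the same limits). Markers of monocytes rose with them: 5 of 6 were higher, beside 12.6% of all genes (3 of 6 within the same limits, beside 5.72%). They included Ly6c2 (1.01, 0.44 within the same limits) and Ccr2, the receptor for CCL2 (1.02, 0.77 within the same limits). The summed level of the 6 monocyte markers ran from 1213 to 3545 CPM over the gated cells of 8 tumors and from 569 to 2202 CPM over the others. Dendritic cell markers summed to 13.3 to 392 CPM in gated cells and 38.7 to 123 CPM in the others and were higher in the gated cells of 4 of 8 tumors, and of 2 tested Ccr7, a receptor for homing to lymph nodes, passed (1.90, adjusted p 0.000245, higher in 4 of 8 tumors). Xcr1, Clec9a and Cd209a were at 0 in the gated cells of 5, 5 and 7 tumors. Neutrophil markers passed as higher in 3 of 3 tested, but Csf3r was higher in 8 of 8 tumors, S100a9 in 5 and S100a8 in 3, and Csf3r alone could be tested within the same limits (0.51, adjusted p 0.0341). Their sums were 30.9 to 1247 CPM in gated cells and 23.6 to 291 CPM in the others, higher in gated cells of 7 of 8 tumors, and R848-BPD tumor 2 and free R848 tumor 3 had the highest (1247 and 545 CPM). With the cells carrying at least 2 UMIs of Csf3r, Cxcr2 and Retnlg together left out, 1897 genes passed. Endothelial markers summed to 67.9 to 160.0 CPM in gated cells and 52.7 to 102 CPM in the others, higher in gated cells of 8 of 8 tumors, with 2 of 2 tested called and 0 of 2 within the same limits. The part of the dendritic cell and endothelial markers in the levels above was not tested.

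Among genes that were lower, tissue-macrophage members were divided: 6 of 25 were higher and 5 lower, beside 12.6% and 10% of all genes, and within the same limits 1 of 24 was higher, near the background, and 6 lower, beside 5.72% and 2.56%. Folr2, a folate receptor of resident macrophages, differed by -0.93 (-1.40 within the same limits) and the fractalkine receptor gene Cx3cr1 by -0.60 (-0.75 within the same limits). Timp2, an inhibitor of matrix metalloproteases, fell from 329 CPM (median of 8 tumors) in the others to 160.4 CPM (-1.10, -1.18 within the same limits). Sepp1 (selenoprotein P) and the mannose receptor gene Mrc1 passed only within the same limits, with -0.91 and -0.70. Csf1r, by contrast, was slightly higher (0.32, 0.14 within the same limits, the latter not passing).

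Many of the steepest falls were in cell-cycle genes, which the gate limited through Mki67 and Top2a. Tpx2, Rrm1, Smc2, Lig1, Mcm5 and Smc4, which act in DNA replication, chromosome condensation and the spindle, differed by -2.52, -2.02, -2.01, -1.52, -1.52 and -1.45 on the log2 scale, and none of these 6 passed within the same limits, where cycling cells were left out on both sides. D17H6S56E-5 (-2.13) was likewise not called there. Gzmc, a granzyme of activated cytotoxic lymphocytes, differed by -3.04 (-1.87 within the same limits) while the 2 tested T and NK cell markers were lower as well, and the gate limited T cell transcripts. Serpinb6a, a protease inhibitor, was lower against both sets of cells (-1.85, -1.84 within the same limits).

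The remaining genes named by size of increase were B3gnt5, a glycosyltransferase (1.50, 1.49 within the same limits), Cytip, a cytohesin-binding protein (1.39, 1.15 within the same limits), Grasp (1.39, 1.32 within the same limits), the adaptor Gab1 (1.25, 1.04 within the same limits), Gpr171 (1.22, 1.02 within the same limits), Rab11fip1, an effector of the recycling GTPase RAB11 (1.21, 1.15 within the same limits), Pmaip1, the pro-apoptotic protein NOXA (1.18, 1.08 within the same limits), and Arl5c (1.17, 1.17 within the same limits). Interferon-stimulated genes differed between the comparisons. Against all other C1q-positive cells 15 of 40 were higher and 0 lower, Irf7 by 0.41 and Isg15 by 0.32, while within the same limits 0 were higher (4 at an unadjusted p under 0.05) and 2 lower by edgeR, and the median was -0.04. Genes of the Toll-like receptor pathway had 8 of 22 higher and 0 lower (4 and 0 of 19). For both lists the shares of all genes were 12.6% higher and 10% lower, and 5.72% and 2.56% within the same limits. The 2 interferon-stimulated genes lower within the same limits stood near the background.

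**Figure D4:**
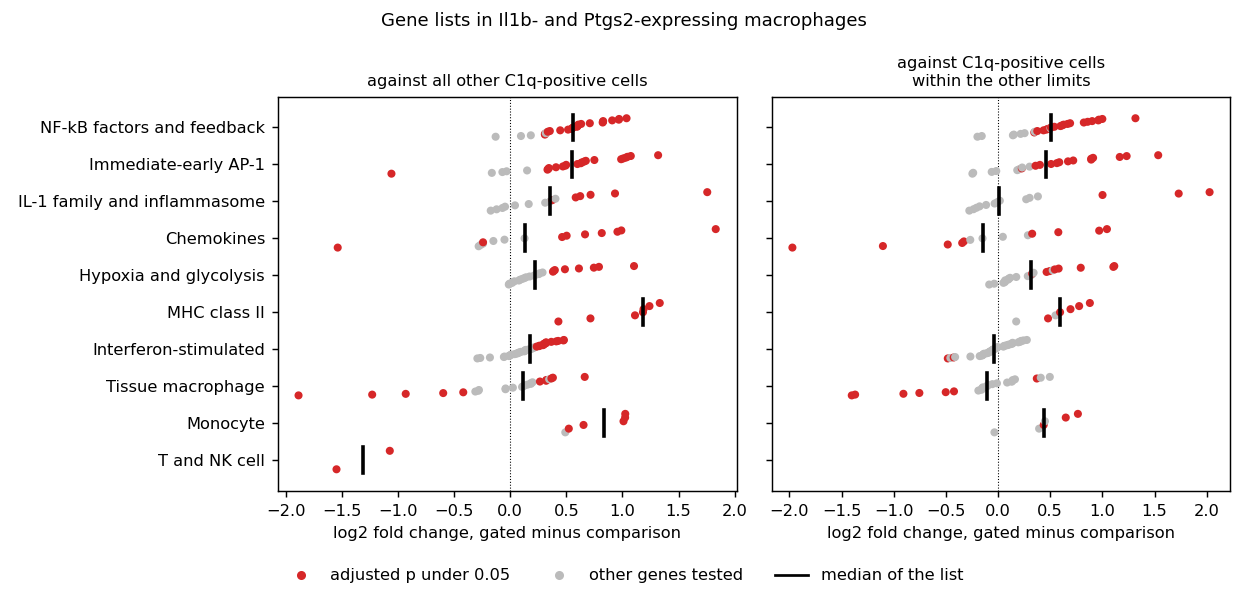
Points give the log2 difference of each tested gene between gated cells and the comparison cells (horizontal axis) for 10 gene lists, against all other C1q-positive cells and against those within the same limits, with genes past an adjusted p of 0.05 in red, the others in grey and a line at the median of each list. NF-κB genes lie to the right in both panels (medians 0.56 and 0.51), whereas interferon-stimulated genes center at 0.18 and -0.04.

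Across treatments, Il1b, Ptgs2, Nlrp3 and Olr1 showed no called difference in all C1q-positive cells with the 8 tumors, where 7.13% of 10777 genes tested with edgeR were called between R848-BPD and saline, 0.909% between R848-BPD and free R848 and 0.00928% between free R848 and saline. Of the genes on which the gate set limits, Mki67 passed between R848-BPD and saline (-1.21, adjusted p 0.05 after rounding, just under the threshold). The fits with 1 tumor left out were added after seeing the data, and the counts moved widely in them. For R848-BPD against saline (768 calls) they gave 470, 402 and 471 without free R848 tumor 1, 2 and 3, 436 and 136 without R848-BPD tumor 1 and 2, and 236 without saline tumor 1. For R848-BPD against free R848 (98) they gave 20, 13 and 15 without free R848 tumor 1, 2 and 3, 20 without R848-BPD tumor 2, 64 without saline tumor 1 and 319 without saline tumor 2, and for free R848 against saline (1) 49 without saline tumor 2 and 0 to 2 without each of the others. With the replicate number as a block the counts were 492, 44 and 2. Il1b was at 4155, 1675 and 3398 CPM after saline, 1999, 2021 and 2809 after free R848, and 1633 and 1370 after R848-BPD. Saline tumor 2 lay within the range of the treated tumors and the others above it. The log2 difference between R848-BPD and saline was -1.03 (edgeR adjusted p 0.106), and -1.33 without saline tumor 2 (adjusted p 0.0079). Ptgs2 was at 563, 213 and 739 CPM after saline, 423, 470 and 636 after free R848, and 331 and 335 after R848-BPD. Without saline tumor 2 all 4 genes passed between R848-BPD and saline, Ptgs2 at -0.97 (adjusted p 0.0255, against -0.59 and 0.429 with it), Nlrp3 at -1.42 (adjusted p 0.0154, against -1.10 and 0.117) and Olr1 at -2.68 (adjusted p 0.0137, against -2.13 and 0.187). The share of C1q-positive cells with at least 2 UMIs of Il1b, each cell thinned to 2000 UMIs, was 68.5%, 49.2% and 51.3% after saline, 55.2%, 51.4% and 63.3% after free R848, and 40.1% and 30.1% after R848-BPD, both below every other tumor (unthinned 77.3%, 63.8% and 58.7%, 65.5%, 62.0% and 71.0%, and 53.2% and 40.4%). Within the gate Il1b was at 6932, 5761 and 7638 CPM after saline, 4239.9, 4510.3 and 4504 after free R848, and 4336 and 3960.2 after R848-BPD, which describes cells chosen on it.

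Within the gated cells, treatment by R848-BPD went with the largest number of differences. Of 6332 genes tested with edgeR, 351 (5.54%) differed between R848-BPD and saline (167 higher, 2.64%, and 184 lower, 2.91%), 154 (2.43%) between R848-BPD and free R848 (95 higher, 1.5%, and 59 lower, 0.932%), and 13 (0.205%) between free R848 and saline (9 higher, 0.142%, and 4 lower, 0.0632%). CPM values are here scaled over the 8 sums of gated cells alone, so they differ slightly from those above. Tumors of the groups did not overlap for 32.6%, 30.4% and 15.3% of the genes in these comparisons. The 3 comparisons share tumors, and the R848-BPD group had 2. Counts fell to 196 and 181 for R848-BPD against saline without R848-BPD tumor 1 and tumor 2 and to 229 without saline tumor 1. Against free R848 they fell to 68 and 72 without R848-BPD tumor 1 and tumor 2, to 82 and 90 without free R848 tumor 2 and tumor 3, and rose to 227 without saline tumor 2. Between free R848 and saline they were 1, 32 and 7 without saline tumor 1, 2 and 3, and 7 and 3 without free R848 tumor 1 and tumor 3. At an unadjusted p under 0.05 the counts were 1182, 783 and 623.

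Saa3, Lcn2 and Cd38 were higher after R848-BPD. Saa3, serum amyloid A3, was at 0, 7.18 and 905 CPM after saline, 162, 93.0 and 31.9 after free R848, and 13569 and 14540.5 after R848-BPD. Both R848-BPD tumors lay above every other tumor, and saline tumor 3 above the other saline tumors. Its log2 difference from free R848 was 7.14 ± 1.14 (SE) (edgeR adjusted p 0.00242) and from saline 5.82 ± 1.10 (SE) (adjusted p 0.00498), and DESeq2 returned no adjusted p for it. Lcn2, the iron-siderophore binding protein lipocalin-2, was at 0, 0 and 0 CPM after saline, 17.7, 13.3 and 21.2 after free R848, and 657 and 709.8 after R848-BPD. After saline no gated cell held a UMI of it. No test of Lcn2 is given because the gene entered the fit through the R848-BPD tumors. Cd38, an NAD-consuming surface enzyme, was at 2.78, 14.4 and 12.7 CPM after saline, 27.3, 9.30 and 13.3 after free R848, and 338 and 398 after R848-BPD. Both R848-BPD tumors lay above the rest, and no test of Cd38 is given for the same reason. Saa3, Lcn2, Cd38 and Procr form a list taken from earlier results of these data, so its 4 of 4 higher members are no independent evidence.

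Nos2, inducible nitric oxide synthase, was at 8.34, 16.7 and 44.6 CPM after saline, 64.2, 13.3 and 61.1 after free R848, and 334 and 587 after R848-BPD (log2 difference from free R848 3.37 ± 0.42 (SE), adjusted p 0.000373, and from saline 4.58, adjusted p 7.18e-05). Both R848-BPD tumors lay above the other tumors.

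Plau and S100a4 were lower after R848-BPD than after free R848 or saline. Plau, the protease urokinase, was at 278, 306 and 338 CPM after saline, 104, 94.4 and 104 after free R848, and 5.80 and 13.3 after R848-BPD. The groups were fully separate, with saline highest and R848-BPD lowest. Log2 differences were -5.23 ± 0.33 (SE) for R848-BPD against saline (adjusted p 1.06e-07), -3.63 ± 0.35 (SE) against free R848 (adjusted p 3.46e-05) and -1.60 ± 0.19 (SE) for free R848 against saline (adjusted p 0.00196), and each passed under every alternative run. S100a4, a calcium-binding protein of motile cells, was at 364, 103 and 516 CPM after saline, 257, 179 and 329 after free R848, and 22.0 and 9.95 after R848-BPD (log2 difference from free R848 -3.76 ± 0.59 (SE), adjusted p 0.00235, and from saline -4.06, adjusted p 0.000844). Plaur, the receptor of urokinase, was lower than after saline (log2 difference -1.18, adjusted p 0.00146).

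Il1r2 and Nlrp3, both higher in the gate than in other macrophages, were lower after R848-BPD than after saline. Il1r2 was at 323, 287 and 478 CPM after saline, 108, 98.3 and 175 after free R848, and 78.9 and 139 after R848-BPD. Saline tumors lay above all treated tumors, and the treated groups overlapped. It differed from saline by -1.51 ± 0.27 (SE) after free R848 (adjusted p 0.0334, but 0.101 to 0.159 without free R848 tumor 1, free R848 tumor 2, saline tumor 1 or saline tumor 3) and by -1.78 ± 0.32 (SE) after R848-BPD (adjusted p 0.00326, but 0.0816 without R848-BPD tumor 1). Nlrp3 was at 598, 471 and 554 CPM after saline, 300.1, 348 and 388 after free R848, and 219 and 305 after R848-BPD. It fell after R848-BPD against saline by 1.07 on the log2 scale (adjusted p 0.00687, but 0.139 without R848-BPD tumor 1) and did not pass in the other comparisons. Il1rn, at 1457, 789.6 and 1637 CPM after saline, 737, 932 and 1359.8 after free R848, and 1320.0 and 2285 after R848-BPD, overlapped between saline and each treatment and did not pass in any comparison (adjusted p 0.212 for R848-BPD against free R848). Il1r1, the signaling IL-1 receptor, had 0, 0 and 1 UMIs after saline, 0, 2 and 0 after free R848, and 23 and 14 after R848-BPD. The R848-BPD tumors held nearly all of these UMIs, and no test is given because the gene entered the fit through them. Of the 16 genes tested on the IL-1 and inflammasome list, 2 were lower after R848-BPD against saline, beside 2.91% of all genes. Those called higher, 4 in the fit, include Il1r1, so their number is not set against the share of all genes.

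Some prostaglandin genes were higher and others lower after R848-BPD. Ptges, the synthase that turns the Ptgs2 product into prostaglandin E2, had 1, 0 and 0 UMIs after saline, 4, 2 and 3 after free R848, and 26 and 29 after R848-BPD. Its counts were low, and the R848-BPD tumors held most of them. No test is given because the gene entered the fit through those tumors. Ptger4 was lower after R848-BPD than after saline (-1.67 ± 0.34 (SE), adjusted p 0.00773, but 0.0506 without R848-BPD tumor 2), as was Hpgds (-1.85 ± 0.39 (SE), adjusted p 0.00898, but 0.0815 without R848-BPD tumor 1). Pla2g7 was at 417, 639 and 682 CPM after saline, 1302, 888 and 842 after free R848, and 2427 and 2511 after R848-BPD, with no overlap between R848-BPD and the other groups (log2 difference from free R848 1.29 ± 0.22 (SE), adjusted p 0.00427). Ptgs2 itself was used by the gate, and its levels of 1026, 897 and 1579.9 CPM after saline, 1051, 1006 and 1222 after free R848, and 822 and 962 after R848-BPD are a description.

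Cytokine and chemokine genes did not rise together. Tnf was at 234, 229.7 and 719.9 CPM after saline, 210.2, 185 and 242 after free R848, and 76.6 and 126 after R848-BPD and differed by -1.94 ± 0.43 (SE) between R848-BPD and saline (adjusted p 0.0129, but 0.172 without R848-BPD tumor 1). Il10, the anti-inflammatory cytokine, was at 55.6, 74.2 and 178 CPM after saline, 14.4, 45.2 and 23.9 after free R848, and 13.9 and 0 after R848-BPD (R848-BPD against saline -3.14 ± 0.65 (SE), adjusted p 0.00839). Inhba, an activin subunit, was at 13.9, 9.57 and 12.7 CPM after saline, 46.5, 31.9 and 53.1 after free R848, and 83.5 and 242 after R848-BPD. It was higher than after saline (3.63 ± 0.52 (SE), adjusted p 0.000573). Of 10 cytokine genes tested, 1 was higher and 4 lower against saline, beside 2.64% and 2.91% of all genes. Ccl5 was at 114, 211 and 299 CPM after saline, 451, 804 and 632 after free R848, and 1444 and 1967 after R848-BPD, and its tumors were ordered saline, free R848, R848-BPD without overlap. It rose against saline after R848-BPD (3.10 ± 0.31 (SE), adjusted p 2.34e-05) and after free R848 (1.66 ± 0.29 (SE), adjusted p 0.0334, but 0.104 to 0.122 without free R848 tumor 2, free R848 tumor 3 or saline tumor 1). Cxcl3, a CXCR2 ligand, was at 11.1, 0 and 6.37 CPM after saline, 3.21, 21.3 and 55.8 after free R848, and 110.2 and 275 after R848-BPD. Both R848-BPD tumors lay above the rest, and no test is given because the gene entered the fit through them.

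MHC class II genes, higher in the gate as a whole, were lower after R848-BPD. H2-Aa was at 1502, 3598 and 930.1 CPM after saline, 1091, 715 and 1304 after free R848, and 321 and 411 after R848-BPD, and saline tumor 2 stood well above the rest. All 7 genes tested of the 9 listed passed against saline, beside 2.91% of all genes lower, with a median log2 difference of -2.39, and the calls of H2-Ab1, H2-Eb1 and Ciita were lost without R848-BPD tumor 1 (adjusted p 0.0667, 0.071 and 0.212), that of Ciita also without R848-BPD tumor 2, saline tumor 1 or saline tumor 2. H2-Aa differed by -2.48 ± 0.44 (SE) (adjusted p 0.00286) and Cd74, the invariant chain, by -2.45 ± 0.39 (SE) (adjusted p 0.00152). H2-Ab1 was at 3874, 10963 and 2765 CPM after saline, 3012, 2069 and 3099 after free R848, and 804 and 1456 after R848-BPD (-2.39, adjusted p 0.00539). Against free R848 2 of 7 passed (median -1.51), H2-DMa by -1.87 ± 0.28 (SE) (adjusted p 0.00184) and H2-DMb1 (-1.55, adjusted p 0.0202, but 0.0574 to 0.312 without free R848 tumor 1, free R848 tumor 3 or R848-BPD tumor 1). Of all genes 0.932% were lower after R848-BPD than after free R848, and 0.0632% after free R848 than after saline. Free R848 against saline gave 0 calls among the MHC class II genes by edgeR or DESeq2 (4 lower at an unadjusted p under 0.05 by edgeR, 1 by DESeq2). The median was -0.89, with 7 of 7 estimates below 0. Dendritic cell markers summed to 43.7 to 287 CPM in the gated cells after saline, 13.3 to 142 after free R848 and 83.8 to 392 after R848-BPD.

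Antioxidant genes, many of them targets of the factor NRF2, were in part higher after R848-BPD. Against saline 11 of 20 were higher and 0 lower (median 1.01), beside 2.64% of all genes higher. Against free R848 9 of 20 were higher and 0 lower (median 0.98), beside 1.5%. Slc7a11 was at 61.2, 38.3 and 89.2 CPM after saline, 16.0, 31.9 and 79.7 after free R848, and 187 and 348 after R848-BPD (log2 difference from free R848 2.74 ± 0.41 (SE), adjusted p 0.00184). Srxn1, which repairs peroxiredoxins, differed from free R848 by 1.39 (adjusted p 0.00412) and Sod2, the mitochondrial superoxide dismutase on the NF-κB list, by 1.84 (adjusted p 0.000194). Hmox1, heme oxygenase-1, was at 195, 52.6 and 191 CPM after saline, 236, 146 and 236 after free R848, and 438 and 633 after R848-BPD. It was higher than after saline (1.94, adjusted p 0.00561). The 4 osteoclast markers Ctsk, Acp5, Ocstamp and Atp6v0d2 summed to 177 to 543 CPM in the gated cells after saline, 479 to 569.7 after free R848 and 1009 to 1305 after R848-BPD, without overlap between R848-BPD and the rest, and 1 of 2 tested, Acp5, passed against both. Their part in the levels after R848-BPD was not tested.

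NF-κB and immediate-early genes, higher in the gated cells than in the others, were in part lower after R848-BPD. Against saline 1 of 27 NF-κB genes was higher and 6 lower (median -0.39), and of 22 immediate-early genes 0 were higher and 6 lower, beside 2.64% higher and 2.91% lower of all genes. Cd83, an activation marker, was at 1051, 1000.1 and 1159 CPM after saline, 576, 739 and 574 after free R848, and 325 and 282 after R848-BPD, with the 3 groups separate. It differed between R848-BPD and saline by -1.80 ± 0.20 (SE) (adjusted p 5.83e-05) and Nr4a1 by -1.22 ± 0.20 (SE) (adjusted p 0.00174). Irak3, a brake on Toll-like receptor signaling, was higher (1.86 ± 0.29 (SE), adjusted p 0.00132), and Tlr2 was lower (-1.58, adjusted p 0.000306). Tlr7, the receptor for R848 in mice, differed by 0.33 and did not pass (adjusted p 0.5).

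Interferon-stimulated genes had 8 of 40 higher and 0 lower after R848-BPD against saline (median 0.66), beside 2.64% and 2.91% of all genes, including Rsad2, the antiviral protein viperin (1.54, adjusted p 0.00349, but 0.059 without R848-BPD tumor 2). After free R848 0 members passed by edgeR or DESeq2 against saline (18 at an unadjusted p under 0.05 by edgeR, 11 by DESeq2), and 38 of 40 estimates were above 0 (median 0.49). Cx3cr1 was lower after R848-BPD (-1.85 ± 0.31 (SE) against saline, adjusted p 0.00227). Monocyte marker sums in the gated cells were 1213 to 2548 CPM after saline, 2777 to 3545 after free R848 and 1531 to 1763 after R848-BPD.

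Free R848 differed from saline in few genes, and most of the calls were lost without a single tumor. Besides Plau, Ccl5 and Il1r2, genes named by size were Gpnmb, a lysosomal glycoprotein (2.25, adjusted p 0.0408, but 0.0609 to 0.169 without free R848 tumor 1, free R848 tumor 3, saline tumor 1, saline tumor 2 or saline tumor 3), Cd97, an adhesion receptor (1.19, adjusted p 0.0408, but 0.0974 to 0.16 without free R848 tumor 2, free R848 tumor 3, saline tumor 1, saline tumor 2 or saline tumor 3), the mitochondrial gene mt-Nd1 (-1.16, adjusted p 0.0471, but 0.101 to 0.252 without free R848 tumor 1, free R848 tumor 3, saline tumor 1, saline tumor 2 or saline tumor 3), Plin2, a lipid droplet coat protein (1.03, adjusted p 0.0346, but 0.0974 to 0.179 without free R848 tumor 1, free R848 tumor 3, saline tumor 1 or saline tumor 3), Itgax, which encodes CD11c (-1.01, adjusted p 0.0408, but 0.0766 to 0.252 without free R848 tumor 2, free R848 tumor 3, saline tumor 1, saline tumor 2 or saline tumor 3), and Fcgr1, a receptor for IgG (0.93, adjusted p 0.0334, but 0.0717 to 0.15 without free R848 tumor 1, free R848 tumor 2, free R848 tumor 3, saline tumor 1 or saline tumor 3). Of the 10 genes named by size here, Plau alone still passed with each of the 8 tumors left out in turn.

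Other genes named by size for R848-BPD were Slpi, a protease inhibitor (2.65 against free R848, adjusted p 0.00878, but 0.119 without R848-BPD tumor 2), Flt1, a VEGF receptor (-2.60, adjusted p 0.0011, but 0.0675 without R848-BPD tumor 1), the ubiquitin ligase Rnf128 (2.54, adjusted p 0.00043), Fbxl5, an iron-sensing ubiquitin ligase subunit (2.34, adjusted p 0.00141), and, against saline, Dtx2 (3.86, adjusted p 1.58e-05). Fpr1, a receptor for formylated peptides, was at 0, 14.4 and 12.7 CPM after saline, 9.63, 10.6 and 5.31 after free R848, and 123 and 202 after R848-BPD. No test of Fpr1 is given because the gene entered the fit through the R848-BPD tumors. S100a9, a calprotectin subunit abundant in neutrophils, had 0, 1 and 0 UMIs after saline, 26, 53 and 128 after free R848, and 10 and 189 after R848-BPD, and its call against saline (adjusted p 0.0344) was lost without single tumors (adjusted p 0.0926 to 0.608 without R848-BPD tumor 2, saline tumor 1, saline tumor 2 or saline tumor 3). Summed neutrophil markers in the gated cells were 30.9 to 93.7 CPM after saline, 125 to 545 after free R848 and 109 to 1247 after R848-BPD. Cells with at least 2 UMIs of Csf3r, Cxcr2 and Retnlg together were then left out, a rule that does not use S100a8 or S100a9. The calls then numbered 349, 165 and 7 for R848-BPD against saline, R848-BPD against free R848 and free R848 against saline.

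**Figure D5:**
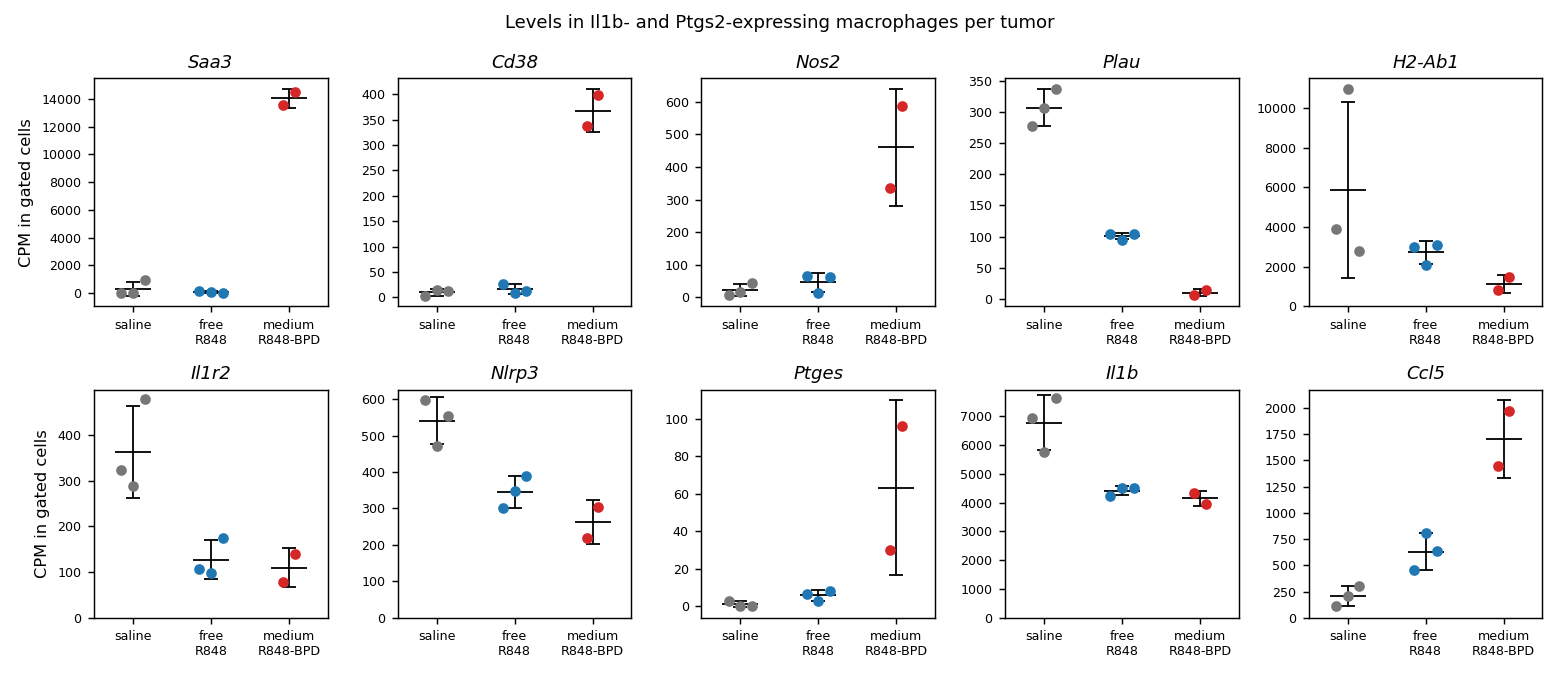
Points give the level in the gated cells of each tumor (vertical axis, CPM) by treatment, with the mean and SD of each treatment (n = 3, 3 and 2), for Saa3, Cd38, Nos2, Plau, H2-Ab1, Il1r2, Nlrp3, Ptges, Il1b and Ccl5. The R848-BPD tumors stand highest for Saa3 (13569 and 14541 CPM) and lowest for Plau (5.80 and 13.3 CPM).

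Most of these treatment differences were not shown to be particular to the gated cells. In the other C1q-positive cells 563 (5.29%), 64 (0.602%) and 0 (0%) of 10636 genes passed by edgeR for R848-BPD against saline, R848-BPD against free R848 and free R848 against saline (2443, 1329 and 1029 at an unadjusted p under 0.05). There Saa3 differed from free R848 by 6.94, Cd38 by 4.04 and Nos2 by 3.46 on the log2 scale. A test of the difference between the response of gated cells and that of the others passed for 3 (0.0354%), 2 (0.0236%) and 1 (0.0118%) of 8473 genes in these comparisons. On simulated counts for R848-BPD against saline, this test recovered 3% of 2-fold and 42.4% of 4-fold differences among 8769 genes, so many differences of this size could be missed. None of the genes described above for a treatment was among them. The first count was 15, 12, 6, 5 and 1 without free R848 tumor 1, free R848 tumor 2, saline tumor 1, R848-BPD tumor 2 and saline tumor 3, and the second was 4 without free R848 tumor 3, R848-BPD tumor 2 or saline tumor 2 and 1 without free R848 tumor 2. For Plau the responses to R848-BPD against saline differed by -1.68 (adjusted p 0.616) and for Il10 by -3.09 (adjusted p 0.0651).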

How the data were processed

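Single-cell RNA was read on Seq-Well arrays from 8 MC38 tumors, 1 library per tumor. What the authors deposited are unnormalized UMI counts in a table of genes by barcodes for each tumor. Per the labels, reads were demultiplexed with bcl2fastq and aligned to mm10. The aligner and annotation are not given in the sources used here. Cells were kept if they had over 400 and under 10000 genes, under 50000 UMIs and a mitochondrial share of no more than 15%, which held for 9886 of 10791 barcodes.

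Groups came from the sample labels. Which cells belong to the gate, the gene lists and the tests were chosen with earlier results of these data known. Counts were summed per tumor over gated and over other C1q-positive cells and tested with edgeR 4.0.16 in R 4.3.3 (quasi-likelihood F-test, TMM, low-count filter, Benjamini-Hochberg threshold 0.05), with a tumor term for gated against other cells and group terms for treatments. DESeq2 1.42.0 was an alternative. Shares were compared by two-sided exact permutation tests in scipy 1.17.1, and doublets were called with Scrublet in scanpy 1.11.5 (Python 3.11.15).

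Named genes were, among called genes outside the gate with a mean of at least 5 log2 CPM, the 15 largest rises and 10 largest falls with 1 direction in every tumor (gated against other cells), and the 10 largest changes without overlap between groups for each pair of treatments. Members of the lists could be named whether called or not. Of the genes named by these rules, 2 are not reported here. Symbols are those of the files (Emr1 is Adgre1, Sepp1 is Selenop). On simulated counts, the test of gated against other cells recovered 87.5% of 2-fold and 100% of 4-fold changes among 8746 genes, and that of R848-BPD against free R848 18.8% and 82.2% among 6835.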

Additional observations from a re-analysis of the deposited data

Results flagged for a closer look

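The response to treatment was compared between gated cells and the other C1q-positive cells in the same edgeR fit, and 5 genes gave 6 differences that passed of 8473 tested. Each is the log2 change in gated cells minus that in the others.

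Sepp1, which encodes selenoprotein P, differed for R848-BPD against saline (-1.49, adjusted p 0.00548). In the others it stood at 446, 489 and 420.3 CPM after saline and 542 and 1107 after R848-BPD, and in gated cells at 435, 560.0 and 554 after saline and 278 and 332 after R848-BPD, so the 2 kinds of cells moved apart. Wfdc17, a small secreted protein of the WAP family, was at 329 and 531 CPM in the others after R848-BPD and at 91.8 and 178 in gated cells (difference -1.58, adjusted p 0.0245). Slc13a3, a dicarboxylate transporter, was at 311 and 107 CPM in the others after R848-BPD and 39.2 and 17.5 in gated cells (-3.31, adjusted p 0.00548), and R848-BPD tumor 1 held most of these UMIs.

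The other 2 genes are markers of other cell types at few UMIs in the gate. Col3a1, a fibrillar collagen of fibroblasts, had 3, 1 and 2 UMIs in gated cells after free R848 and 12 and 4 after R848-BPD (difference 5.14, adjusted p 0.0108), while the others held 321, 788 and 59 UMIs after free R848. Gzma, granzyme A of cytotoxic lymphocytes, had 12, 23 and 0 UMIs in gated cells after saline, 2, 0 and 1 after free R848 and 43 and 22 after R848-BPD (4.31, adjusted p 0.0108, for R848-BPD against free R848, and -5.07, adjusted p 0.00347, for free R848 against saline). T and NK cell markers summed to 0 to 98.3 CPM in gated cells after saline, 0 to 8.34 after free R848 and 74.1 to 76.5 after R848-BPD, and fibroblast markers to 0 to 8.43, 6.88 to 13.3 and 27.8 to 41.9. Their part in these differences was not tested.

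Each of these 6 differences lost its call without at least 1 tumor. The edgeR adjusted p of Sepp1 was 0.104 and 0.0594 without R848-BPD tumor 2 and saline tumor 3, that of Wfdc17 was 0.443, 0.298 and 0.0776 without R848-BPD tumor 1, saline tumor 2 and saline tumor 3, and that of Slc13a3 was 0.45 and 0.164 without R848-BPD tumor 1 and saline tumor 2. Col3a1 stood at 0.224 and 0.822 without free R848 tumor 2 and R848-BPD tumor 1. Gzma stood at 0.751, 0.142 and 0.186 for R848-BPD against free R848 without free R848 tumor 1, free R848 tumor 2 and R848-BPD tumor 1, and at 0.47 and 0.0575 for free R848 against saline without free R848 tumor 1 and saline tumor 2. DESeq2 did not call Col3a1 or Gzma.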

How the results depend on the processing

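Alternatives were run for the shares and for the counts of calls, other than the counts between treatments in the other C1q-positive cells. Those leaving out shared barcodes or, for the shares, neutrophil-marked cells, and those for all C1q-positive cells, were added after seeing the data. The count for gated against other cells (1916) was 530 within the same limits, 1085 with as many comparison cells as gated cells, 998 in cells of 4000 to 16000 UMIs and 939 with no replicate block (tumor term dropped), and lay between 1626 and 1893 with 1 tumor left out. Within gated cells R848-BPD against free R848 (154) gave 323 calls with no filter and 234 with the 2 groups alone, and 68 to 227 with 1 tumor left out. R848-BPD against saline (351) gave 578 with no filter and 181 to 347 with 1 tumor left out. Free R848 against saline (13) gave 30 with DESeq2, 134 with no filter, 7 without neutrophil-marked cells, 34 with the replicate block and 1 to 32 with 1 tumor left out. For the difference in response, DESeq2 gave 0, 0 and 6 calls for R848-BPD against free R848, free R848 against saline and R848-BPD against saline (edgeR 2, 1 and 3), and no filter gave 25, 15 and 38. R848-BPD against saline gave 6 without neutrophil-marked cells and 8 without shared barcodes, and leaving out 1 tumor gave 1 to 4, 1 to 1 and 1 to 15. Replicate numbers did not pair the tumors (correlations of same-numbered deviations -0.0617 to 0.0776), and the replicate block gave 213 and 398 calls for R848-BPD against free R848 and against saline. Shares changed direction between free R848 and saline within the other limits (-0.306 points) and between R848-BPD and saline when thinned to 2000 UMIs (-1.34), thinned to 1000 UMIs with Il1b at 1 or more (-0.958) or counted within the other limits (-15.6). In all C1q-positive cells the log2 difference of Ptgs2 between free R848 and saline lay between -0.35 (without saline tumor 2) and 0.40 (without saline tumor 3) with 1 tumor left out and was -0.17 without free R848 tumor 3. DESeq2 returned no adjusted p for 8 of the values of single genes. The cause of these changes was not tested. With 2 R848-BPD tumors and as few as 47 gated cells in a tumor, changes under 2-fold between treatments were rarely detectable.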
